A study of Mus musculus with 76 samples.

Results

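The thymus attracts, positions and releases developing T cells with chemokines, small secreted proteins read by receptors on migrating cells. The ligands described here are Ccl2, Ccl17, Ccl19, Ccl20, Ccl21a, Ccl22, Ccl25, Cxcl10, Cxcl12 and Cxcl16. They were taken by gene name and are 10 of the 55487 genes in the deposited tables. The question was which sorted thymic population held the RNA of each ligand, on which day and in which genotype, and how the whole thymus and a lymph node compared.

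The mice were of the SOD1-G93A strain, a model of amyotrophic lateral sclerosis in which a transgene carries a mutant human SOD1. Libraries labelled Sod1Mut are called SOD1 here and their controls WT. The thymus was digested, stained and sorted into medullary thymic epithelial cells (mTEC), cortical thymic epithelial cells (cTEC), Treg (regulatory T cells) and CD4 T cells (CD4), each from SOD1 and WT mice at d120 and at d30. Each of these 16 groups held 3 libraries, except WT cTEC at d30 and WT CD4 at d30 with 2. Whole thymus and inguinal lymph node (iLN), each unsorted, were sampled at d120 alone, with 3 SOD1 and 3 WT libraries each. Cultured cells, titled Tregdiff and labelled Treg in vitro, were sampled without activation (T0) and at T2 and T20 of activation, with 3 libraries per genotype and time, and the unit of T is not given in the labels. No label gives the gates of the sort, the sex of the mice or whether d120 and d30 libraries were prepared together, so age and preparation cannot be told apart. Nothing in the labels says that replicates were separate mice, so p-values measure the spread between these samples.

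The labels were checked against marker genes. The summed level of 7 cTEC markers ran from 6801 to 23964 CPM (scaled counts, relative to library size) in cTEC libraries, against 275 to 1330 in mTEC libraries. Aire, the transcription factor of mature mTEC, averaged 1162 ± 502 CPM in mTEC at d120 and 918 ± 176 at d30 (SD, n = 6 each), against 4.29 ± 7.88 (n = 6) and 13.1 ± 9.17 (n = 5) in cTEC. The sum of 8 mTEC markers overlapped between the populations, at 1136 to 5541 CPM in mTEC and 707 to 4279 CPM in cTEC. Foxp3, which defines Treg, averaged 132 ± 71.4 CPM in Treg and 12.6 ± 4.41 in CD4 at d120. Reads assigned to Sod1 were higher in every SOD1 library than in every WT library in 12 of 13 sets of libraries, the exception being mTEC at d30. Sorted libraries held 15135 to 36919936 counts and lymph node libraries 63887 to 894958. SOD1 mTEC d30 replicate 1 stood apart with 15135 counts, where 1 count is 34.4 CPM, and its zeros say little.

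In background terms, Ccl25 acts through Ccr9 and Cxcl12 through Cxcr4, and both draw progenitors into the cortex and hold immature thymocytes there. Ccl21a and Ccl19 act through Ccr7 and guide selected thymocytes into the medulla. Ccl17 and Ccl22 share Ccr4, and dendritic cells are a known source of both, while Ccl20 acts through Ccr6, Ccl2 through Ccr2, Cxcl10 through Cxcr3 and Cxcl16 through Cxcr6.

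Ccl21a needs care because near-identical copies lie beside it on chromosome 4 (gene at 4:42772860-42773993, minus strand, mm10, GENCODE vM21). Over the 402 coding bases, Ccl21b, Gm10591, Gm13304 and Gm21541 differ from Ccl21a only by T84A and C194T, counted from the A of the start codon with the base of Ccl21a first. The stretch from position 74 to 204 is shown, since it holds both differences, given in capitals, and is all that can separate coding reads.
Ccl21a: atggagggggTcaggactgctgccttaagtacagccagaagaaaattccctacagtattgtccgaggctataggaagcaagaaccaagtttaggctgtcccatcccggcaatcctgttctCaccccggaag
Ccl21b: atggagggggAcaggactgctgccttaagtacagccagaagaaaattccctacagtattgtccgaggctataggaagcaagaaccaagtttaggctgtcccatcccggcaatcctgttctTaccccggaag

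Of the counts assigned to this family, the 4 copies took 18.7 ± 10.9% in mTEC at d120 (SD, n = 6) and 15.1 ± 9.63% at d30 (n = 6), against 7.25 ± 5.63% (n = 6) and 2.61 ± 1.14% (n = 5) in cTEC. The labels do not say how shared reads were split in counting, so values of Ccl21a are uncertain to that extent, and the calls below were also made with the copies added. Ccl19 has copies as well, with Gm2564 at 98.9% identity over 707 bases and Ccl19-ps3 at 100% over 324. Counts of these copies were not added to Ccl19 in any fit.

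Ccl25 and Cxcl12 were the cortical ligands on both days. Ccl25 (8:4325210-4360020, plus strand) was measured in SOD1 mTEC at d120 at 625, 449 and 951 CPM and in SOD1 cTEC at 3186, 2821 and 1218. In WT at d120 it was at 371, 503 and 237 CPM in mTEC and at 2159, 3464 and 2319 in cTEC. At d30 Ccl25 ran from 172 to 1055 CPM in mTEC (median 615) and from 2353 to 7304 in cTEC (median 6364), so that the populations did not overlap on either day. The difference of mTEC to cTEC was −2.34 ± 0.47 (log2, SE) at d120 with an adjusted p of 0.000322, and −3.08 ± 0.50 at d30 with an adjusted p of 6.01e-05, by edgeR's quasi-likelihood test with Benjamini-Hochberg adjustment over all genes. All adjusted p-values of sorted cells, lymph node and cultures below are of this kind.

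Cxcl12 (6:117168535-117181367, plus strand) separated the epithelial populations most of the 10 ligands by log2 difference at d30. It was at 42.3, 20.9 and 23.03 CPM in SOD1 mTEC at d120 and at 1906, 1941 and 665 in SOD1 cTEC. In WT the d120 values were 53.1, 59.9 and 75.3 CPM in mTEC and 1252, 2211 and 1451 in cTEC. The mTEC libraries were all far below the cTEC libraries, with a log2 difference of −5.20 ± 0.56 at d120 (edgeR adjusted p = 2.05e-08) and −6.21 ± 0.61 at d30 (edgeR adjusted p = 6.81e-09). Both cortical ligands were lowest in the same d30 cTEC library, WT replicate 2, at 2353 CPM of Ccl25 and 986 CPM of Cxcl12. That library also had the lowest sum of cTEC markers at d30, 7686 CPM, and the highest sum of 8 dendritic cell markers, 1083 CPM, and their part in the result was not tested.

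**Figure D1:**
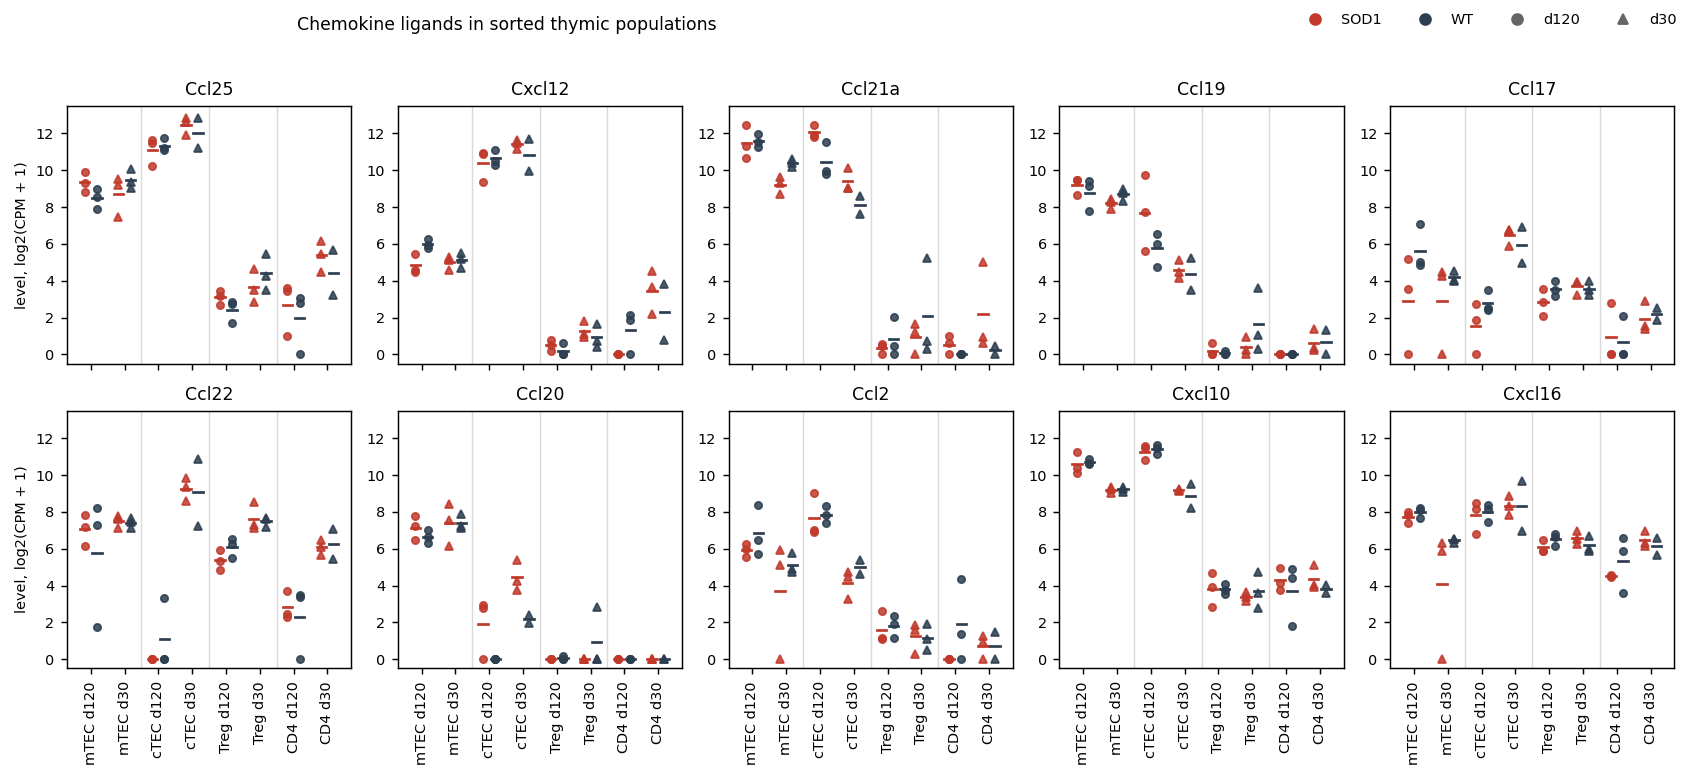
Level of each ligand in each sorted library, as log2(CPM + 1), with SOD1 in red and WT in dark blue, circles for d120 and triangles for d30, and a bar at each group's mean. Ccl25 and Cxcl12 are highest in cTEC and Ccl20 in mTEC. Ccl19 is higher in mTEC than in every cTEC library but SOD1 d120 replicate 3, which is above all mTEC libraries. Ccl22 is at 0 in 5 of the 6 cTEC libraries at d120.

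Ccl19 and Ccl20 were the medullary ligands. Ccl19 (4:42754525-42756577, minus strand) was at 696, 697 and 406 CPM in SOD1 mTEC at d120 and at 690.3, 557 and 221 in WT mTEC. In cTEC at d120 it was at 215, 47.9 and 847 CPM in SOD1 and at 91.8, 62.9 and 26.1 in WT, so that SOD1 cTEC replicate 3 was above every mTEC library. The log2 difference of mTEC to cTEC was +1.86 ± 0.64 at d120 (edgeR adjusted p = 0.0267), a call kept in 7 of 12 fits that each left out 1 library and lost in DESeq2. At d30 Ccl19 averaged 359 ± 94.1 CPM in mTEC (n = 6) and 23.6 ± 11.1 in cTEC (n = 5), without overlap, a log2 difference of +3.93 ± 0.79 (edgeR adjusted p = 0.000743).

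Ccl20 (1:83116766-83119167, plus strand) was at 149, 215 and 86.9 CPM in SOD1 mTEC at d120 and at 126, 97.5 and 78.3 in WT mTEC. In cTEC at d120 it was at 6.66, 5.8 and 0 CPM in SOD1 and at 0 in the 3 WT libraries. The 2 populations did not overlap at d120, and the edgeR adjusted p was 4.4e-06. At d30 Ccl20 averaged 186 ± 93.0 CPM in mTEC (n = 6) and 15.6 ± 15.3 in cTEC (n = 5), a log2 difference of +4.41 ± 0.85 (edgeR adjusted p = 0.000866). In CD4 cells Ccl20 had no count in 11 libraries, which puts mTEC at least 481.6-fold higher at d120 and at least 2295-fold higher at d30, against a floor of 3 counts over the CD4 libraries of each day.

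Ccl21a and Cxcl10 were high in both epithelial populations. Ccl21a was at 5576, 1591 and 2555 CPM in SOD1 mTEC at d120 and at 5663, 3816 and 3557 in SOD1 cTEC. In WT the d120 values were 2908, 2443 and 4015 CPM in mTEC and 3003, 894 and 1005 in cTEC. The populations overlapped, and the log2 difference of mTEC to cTEC did not pass the test at d120 (+0.26 ± 0.74, edgeR adjusted p = 0.896) or at d30 (+0.99 ± 0.80, edgeR adjusted p = 0.447). Cxcl10 (5:92346638-92348889, minus strand), an interferon-induced ligand, averaged 1654 ± 457 CPM in mTEC and 2631 ± 511 in cTEC at d120 (n = 6 each), and 596 ± 59.8 (n = 6) and 549 ± 159 (n = 5) at d30. Its log2 difference was −0.67 ± 0.35 at d120 and +0.15 ± 0.37 at d30 (edgeR adjusted p = 0.152 and 0.857). Ccl2 (11:82035571-82037453, plus strand), which calls monocytes, was also shared, at 109 ± 111 CPM in mTEC and 247 ± 156 in cTEC at d120 and 33.5 ± 21.4 and 23.9 ± 11.3 at d30, and it did not pass the test on either day (edgeR adjusted p = 0.115 and 0.584).

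Ccl17 and Ccl22 were higher in mTEC at d120 and higher in cTEC at d30, while Cxcl16 was higher in cTEC at d30 and did not pass at d120. Ccl22 (8:94745590-94751699, plus strand) was at 223, 145 and 69.1 CPM in SOD1 mTEC at d120 and at 157, 293 and 2.35 in WT mTEC. It had no count in 5 of 6 cTEC libraries at d120 and 8.87 CPM in WT replicate 3, and the edgeR adjusted p was 2.61e-07. At d30 the values in mTEC were 138, 194 and 221 CPM in SOD1 and 173, 139 and 204 in WT. The cTEC libraries at d30 were at 662, 915 and 385 CPM in SOD1 and at 1856 and 151 in WT. Most d30 cTEC libraries thus lay above d30 mTEC, with a log2 difference of −2.15 ± 0.67 (edgeR adjusted p = 0.0175) that was lost without WT cTEC replicate 2 (edgeR adjusted p = 0.505). Ccl17 (8:94810453-94812036, plus strand), its neighbour on chromosome 8, averaged 39.7 ± 48.1 CPM in mTEC and 4.56 ± 3.38 in cTEC at d120 (n = 6 each), a log2 difference of +2.91 ± 0.80 (edgeR adjusted p = 0.00573). At d30 it averaged 15.2 ± 8.01 CPM in mTEC (n = 6) and 84.4 ± 38.6 in cTEC (n = 5), a log2 difference of −2.22 ± 0.80 (edgeR adjusted p = 0.039) kept in 1 of 11 fits that each left out 1 library.

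Cxcl16 (11:70453983-70459984, minus strand), the ligand of Cxcr6 on innate-like T cells, averaged 238 ± 48.8 CPM in mTEC and 257 ± 95.6 in cTEC at d120. At d30 it averaged 66.0 ± 34.6 CPM in mTEC and 392.2 ± 274 in cTEC, with the lowest cTEC library at 122 and the highest mTEC library at 91.9. The log2 difference was −0.12 ± 0.38 at d120 (edgeR adjusted p = 0.916) and −2.48 ± 0.42 at d30 (edgeR adjusted p = 0.000118).

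The difference between mTEC and cTEC itself differed between the days for 3 of the 10 ligands, where 2.93% of all genes tested did. As a signed value, log2(mTEC / cTEC) at d120 minus that at d30, the change was +5.14 ± 1.13 for Ccl17 (edgeR adjusted p = 0.00561), and for Ccl22 the edgeR adjusted p was 5.6e-07. For Cxcl16 it was +2.36 ± 0.56 (edgeR adjusted p = 0.0123), where the populations lay closer together at d120 (−0.12) than at d30 (−2.48). The call of Cxcl16 was lost without WT cTEC d30 replicate 2 (edgeR adjusted p = 0.234). In all, mTEC differed from cTEC in 6 ligands at d120, 4 higher and 2 lower, where 28.7% of genes differed, and in 7 at d30, 2 higher and 5 lower, where 22.3% did. The median log2 difference over the 10 ligands was +0.07 at d120 and −1.005 at d30, beside +0.62 and +0.03 over all genes tested.

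**Figure D2:**
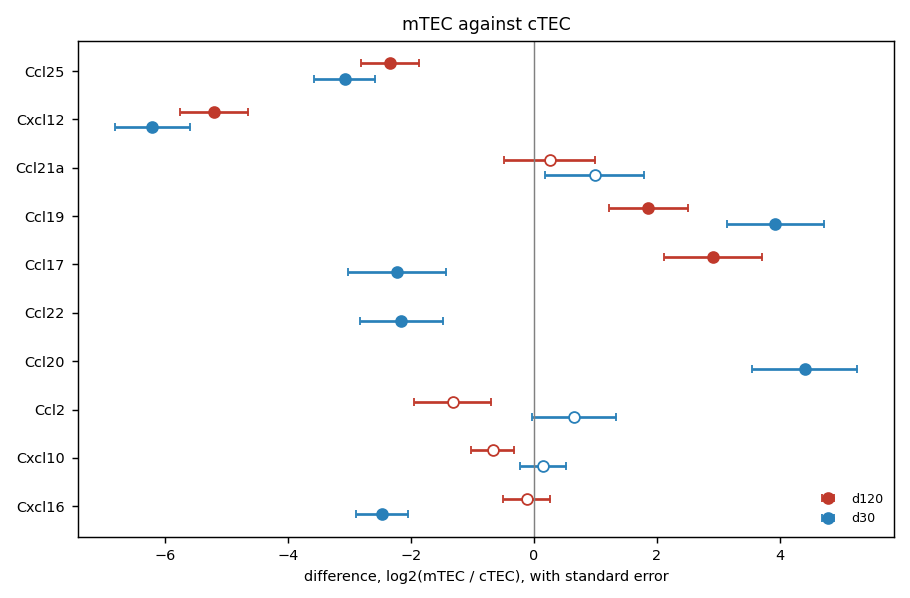
Difference of mTEC to cTEC for each ligand, as log2(mTEC / cTEC) with its standard error, in red at d120 and in blue at d30. Filled points passed the test, and no point is drawn for Ccl22 and Ccl20 at d120, where most cTEC libraries had no count. Ccl25 and Cxcl12 lie below 0 on both days, Ccl19 above 0 on both, and Ccl17 changes side.

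Against the T cell populations the epithelial cells held most of the ligands. In mTEC, 9 of 10 were higher than in Treg at d120 (50.4% of all genes differed) and 7 at d30 (45.5%), and 10 were higher than in CD4 at d120 (48.8%) and 8 at d30 (42.8%). In cTEC, 7 were higher and Ccl22 lower than in Treg at d120 (38.9%), and 7 were higher and Ccl22 lower than in CD4 (34%). At d30 all 10 were higher in cTEC than in Treg (17.1%) and than in CD4 (16.9%). Several of these calls involve Ccl17, Ccl22 or Ccl20 and rest on few libraries. At d30 the call of Ccl22 between cTEC and Treg was kept in 5 of 11 fits that each left out 1 library, and that of Ccl17 between mTEC and CD4 in 6 of 11.

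Between Treg and CD4 cells 1 ligand differed on each day. Ccl22 in Treg was at 27.7, 59.1 and 39.8 CPM in SOD1 and 74.9, 43.4 and 92.5 in WT at d120. In CD4 it was at 3.86, 11.97 and 4.53 CPM in SOD1 and 9.2, 10.1 and 0 in WT. Every Treg library was above every CD4 library, a log2 difference of +2.99 ± 0.69 (edgeR adjusted p = 0.00658), and Ccl22 was the only ligand of 10 that differed at d120, where 5.25% of genes did. At d30 Ccl22 averaged 199.99 ± 86.5 CPM in Treg (n = 6) and 76.0 ± 35.7 in CD4 (n = 5), and every Treg library was again above every CD4 library, but the difference did not pass (+1.36 ± 0.67, edgeR adjusted p = 0.62). The only ligand that passed at d30, where 0.856% of genes did, was Cxcl12, at 1.28 ± 0.867 CPM in Treg and 10.2 ± 8.44 in CD4, a log2 difference of −2.76 ± 0.58 (edgeR adjusted p = 0.00761). It was lost without WT CD4 d30 replicate 3 (edgeR adjusted p = 0.872). With the replicate number as a block, since same-numbered Treg and CD4 libraries of d30 deviated together, the edgeR adjusted p of Cxcl12 was 0.117 and Ccl22 was called in its place. Cxcl16 averaged 80.2 ± 21.2 CPM in Treg and 38.2 ± 31.8 in CD4 at d120, and 85.5 ± 25.8 and 83.0 ± 27.7 at d30. The sum of dendritic cell markers in these sorts was 91.6 to 192 CPM in Treg and 51.8 to 279 in CD4 at d120, and 141 to 252 and 186 to 797 at d30. The sum of cTEC markers was 284 to 775 CPM in Treg and 166 to 612 in CD4 at d120, and the part of either in the T cell values was not tested.

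Levels of different genes were compared per length, as TPM estimated here from the counts and annotated exon lengths. Each length was the union of all annotated exons of the gene. It was 7445 bases for Ccl25 and 8176 for Cxcl12, against 870 for Ccl21a. The order of the ligands depends on these lengths, since the transcripts in use may be shorter. On that scale Ccl21a was the highest of the 10 ligands in mTEC, at a mean of 7435 at d120 and 2907 at d30. In cTEC Ccl21a led at d120, at 6465, and Ccl25 at d30, at 1847. Cxcl16 led in Treg (78.2) and CD4 (37.3) at d120, and Ccl22 led in both at d30 (281 in Treg and 96.5 in CD4). Cxcl12 was the lowest in mTEC on both days, at 11.4 and 11.7.

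With age the largest set of changes was in cTEC, where 6 of 10 ligands differed between d120 and d30, against 4.63% of all genes tested. Fold changes of age and genotype come from a fit of each population alone, while CPM levels are on a scale shared by all sorted libraries. Cxcl10 was at 3041, 1787 and 2784 CPM in SOD1 and at 3113, 2801 and 2256 in WT at d120. At d30 it was at 556, 597 and 573 CPM in SOD1 and at 290.4 and 727 in WT. No d120 library overlapped d30, and the log2 difference was +2.54 ± 0.30 (edgeR adjusted p = 0.0011). Ccl21a rose to 2989 ± 1816 CPM at d120 (n = 6), against 553 ± 349.8 at d30 (n = 5), by +2.76 ± 0.40 (edgeR adjusted p = 0.00322), with the lowest d120 library at 894 and the highest d30 library at 1131. With the counts of its 4 copies added the rise was +2.83 (edgeR adjusted p = 0.00261).

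Ccl2 in cTEC rose to 247 ± 156 CPM at d120, against 23.9 ± 11.3 at d30, by +3.65 ± 0.62 (edgeR adjusted p = 0.00747). Its lowest d120 library was at 119 CPM and its highest d30 library at 40.3. Ccl19 rose to 215 ± 317 CPM, against 23.6 ± 11.1, by +2.96 ± 0.77 (edgeR adjusted p = 0.0437), a call kept in 2 of 11 fits that each left out 1 library. Without WT cTEC d30 replicate 2, 3 ligands were called in cTEC in place of 6.

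The other direction was taken by Ccl22 and Ccl17 in cTEC. Ccl22 fell to 1.48 ± 3.62 CPM at d120, against 794 ± 659.6 at d30 (edgeR adjusted p = 0.00174), and no library overlapped. Ccl17 fell to 4.56 ± 3.38 CPM, against 84.4 ± 38.6, by 4.08 ± 0.82 on the log2 scale (edgeR adjusted p = 0.0164), a call kept in 7 of 11 fits that each left out 1 library. Ccl25 did not pass the test, at 2528 ± 812 CPM at d120 and 5420.3 ± 2192 at d30 (−0.83 ± 0.31, edgeR adjusted p = 0.161). Nor did Cxcl12 (−0.41 ± 0.34, edgeR adjusted p = 0.604), Cxcl16 (−0.43 ± 0.48, edgeR adjusted p = 0.722) or Ccl20 (edgeR adjusted p = 0.0982). Ccl20 passed without the libraries of low depth (edgeR adjusted p = 0.0291). The median log2 difference of the 10 ligands was −0.42, beside −0.30 over all genes tested.

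Markers of other cells differed between the same libraries. In cTEC the sum of 8 dendritic cell markers was 0 to 35.7 CPM at d120 and 59.3 to 1083 at d30. Of these 8 markers, 5 fell (Itgax, Flt3, Cd209a, Batf3 and Cd207), and Clec9a, Cd209a, Batf3 and Cd207 had no count in any cTEC library at d120. The sum of 8 T cell markers was 30.1 to 244 CPM at d120 and 862 to 1400 at d30, and Ptprc, the pan-leukocyte marker, averaged 48.3 ± 36.2 and 315 ± 132. Epcam, an epithelial surface marker, averaged 1464 ± 235 CPM in cTEC at d120 and 393 ± 17.2 at d30. The sum of 8 mTEC markers was 866 to 4279 CPM in cTEC at d120 and 707 to 1370 at d30. Of these markers Krt5, Cldn3 and Cldn4 rose, while Aire had no count in 4 of 6 cTEC libraries at d120. In bulk libraries fewer cells of a type and less RNA per cell cannot be told apart, and the part of these markers in the changes of the ligands was not tested.

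**Figure D3:**
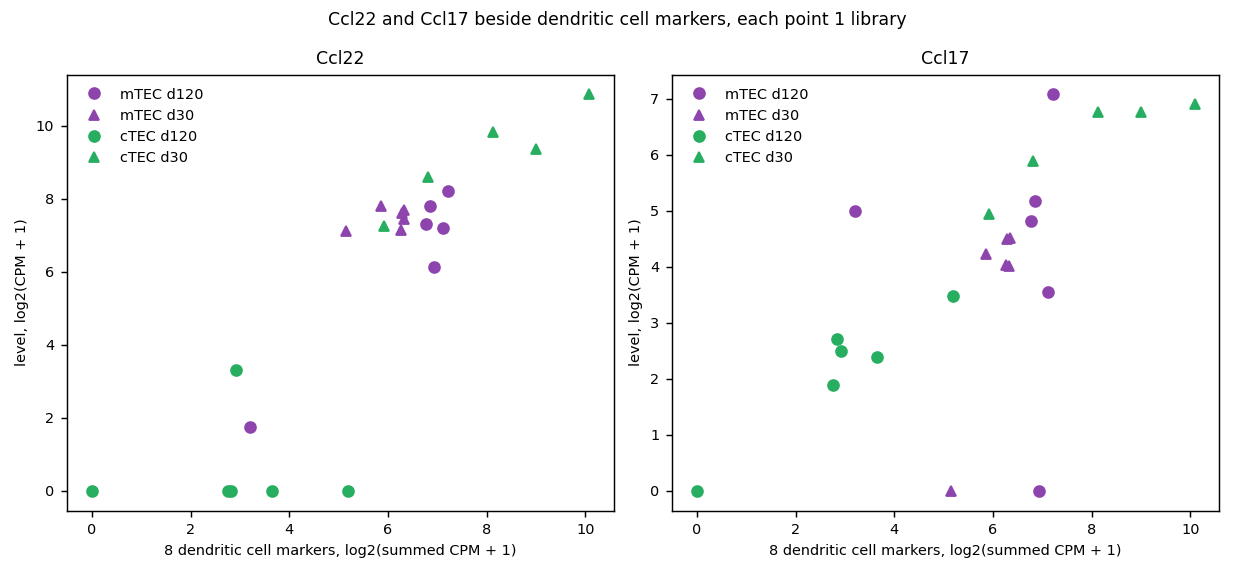
Ccl22 (left) and Ccl17 (right) in each epithelial library, as log2(CPM + 1), against the sum of 8 dendritic cell markers on the same scale, with mTEC in purple, cTEC in green, circles for d120 and triangles for d30. The 6 cTEC libraries of d120 lie at the low end of both axes, and the mTEC library with a Ccl22 level of 2.35 CPM, WT replicate 3 of d120, has a marker sum of 8.23 CPM. For Ccl17 that library is at 31.0 CPM, and SOD1 replicate 3 of d120 mTEC is at 0 with a marker sum of 122 CPM.

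In mTEC 3 of the 10 ligands rose with age and none fell, where 3.16% of genes differed. Ccl21a averaged 3181 ± 1412 CPM at d120 and 974 ± 435 at d30 (n = 6 each), a log2 difference of +1.81 ± 0.31 (edgeR adjusted p = 0.00549). Cxcl10 averaged 1654 ± 457 and 596 ± 59.8 CPM, by +1.48 ± 0.23 (edgeR adjusted p = 0.00273). Cxcl16 was at 256, 224 and 166 CPM in SOD1 and 278, 206 and 298 in WT at d120, against 0, 57.4 and 78.3 in SOD1 and 89.7, 91.9 and 78.7 in WT at d30. That is a log2 difference of +1.71 ± 0.27 (edgeR adjusted p = 0.0032), and the 0 is the shallow library. For these 3 ligands every d120 mTEC library was above every d30 one. Ccl22 averaged 148 ± 104 CPM at d120 and 178 ± 34.5 at d30 and did not pass in mTEC (−0.29 ± 0.63, edgeR adjusted p = 0.897). Its lowest library, WT d120 replicate 3 at 2.35 CPM, had 8.23 CPM of dendritic cell markers, against 108 to 147 CPM in the other 5 libraries of d120. Ccl17 did not follow the marker sum in the same way, at 31.0 CPM in that library and at 0 in SOD1 d120 replicate 3, whose marker sum was 122 CPM. Ptprc averaged 10.9 ± 9.87 CPM in mTEC at d120 and 20.9 ± 13.8 at d30. The part of other cells in the mTEC values was not tested. The median log2 difference of the 10 ligands in mTEC was +0.73, beside −0.08 over all genes tested. Across the 16 sorted groups the mean levels of Ccl21a and Cxcl10 had a Pearson r of 0.985, those of Ccl25 and Cxcl12 0.954 and those of Ccl17 and Ccl22 0.704, as descriptions over groups that share libraries across genes. These pairs were not set apart, since r was also 0.959 for Ccl21a and Ccl19 and 0.911 for Ccl21a and Ccl25.

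**Figure D4:**
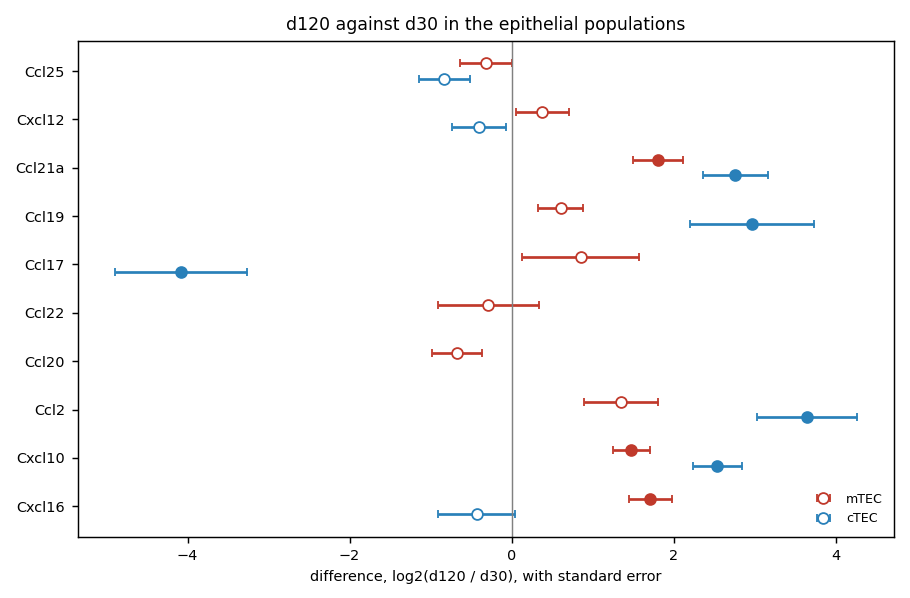
Difference of d120 to d30 for each ligand, as log2(d120 / d30) with its standard error, in red for mTEC and in blue for cTEC. Filled points passed the test, and Ccl22 and Ccl20 in cTEC are not drawn because most d120 libraries had no count. Ccl21a and Cxcl10 lie above 0 and passed in both populations.

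In Treg 2 of the 7 ligands that could be tested fell with age, where 29.9% of genes differed. Ccl22 averaged 56.2 ± 24.2 CPM at d120 and 199.99 ± 86.5 at d30 (n = 6 each), a log2 difference of −1.89 ± 0.30 (edgeR adjusted p = 0.000594), with the highest d120 library at 92.5 and the lowest d30 library at 137. Ccl25 averaged 6.25 ± 2.66 and 18.5 ± 13.4 CPM (−1.54 ± 0.42, edgeR adjusted p = 0.0148). In the same Treg libraries the sum of 8 double-positive thymocyte markers was 693 to 1222 CPM at d120 and 1919 to 2750 at d30, and that of 6 B cell markers averaged 229 ± 99.7 and 69.8 ± 19.1. In CD4 cells 2 of the 6 tested fell, where 10.6% of genes differed. Ccl22 averaged 6.61 ± 4.54 CPM at d120 (n = 6) and 76.0 ± 35.7 at d30 (n = 5), a log2 difference of −3.24 ± 0.57 (edgeR adjusted p = 0.00613). That call was lost without WT CD4 d30 replicate 2 (edgeR adjusted p = 0.0559). Cxcl12 averaged 1.01 ± 1.58 and 10.2 ± 8.44 CPM in CD4 (edgeR adjusted p = 0.0399), a call kept in 3 of 11 fits that each left out 1 library. The sum of dendritic cell markers in CD4 averaged 148 ± 89.8 CPM at d120 and 428 ± 247 at d30, and the part of these markers in the Treg and CD4 values was not tested.

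Promoter sequence is shown for 3 of the ligands that rose in cTEC, Cxcl10, Ccl19 and Ccl21a, as 250 bases before to 50 after the start from RefSeq (GRCm38.p6, minus strand for each). A RefSeq promoter was at hand for 8 of the 10 ligands. Capitals mark the core of an interferon-stimulated response element (GAAA, any 2 bases, GAAA) or a kappaB-type motif (GGGACTT, any base, CC), searched on both strands, and the matches do not overlap.
Cxcl10, 5:92348840-92349139: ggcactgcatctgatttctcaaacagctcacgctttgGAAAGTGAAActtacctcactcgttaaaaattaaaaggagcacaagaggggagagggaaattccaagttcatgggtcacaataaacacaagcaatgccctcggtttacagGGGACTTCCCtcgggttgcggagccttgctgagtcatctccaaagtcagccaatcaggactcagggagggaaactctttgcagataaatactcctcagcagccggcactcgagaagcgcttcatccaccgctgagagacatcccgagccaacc
Ccl19, 4:42756316-42756615: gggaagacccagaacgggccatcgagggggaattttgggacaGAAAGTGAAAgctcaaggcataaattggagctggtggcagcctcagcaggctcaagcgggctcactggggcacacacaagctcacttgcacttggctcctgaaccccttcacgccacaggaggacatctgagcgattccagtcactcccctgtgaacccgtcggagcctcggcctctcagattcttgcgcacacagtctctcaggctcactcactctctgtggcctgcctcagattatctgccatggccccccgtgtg
Ccl21a, 4:42773942-42774241: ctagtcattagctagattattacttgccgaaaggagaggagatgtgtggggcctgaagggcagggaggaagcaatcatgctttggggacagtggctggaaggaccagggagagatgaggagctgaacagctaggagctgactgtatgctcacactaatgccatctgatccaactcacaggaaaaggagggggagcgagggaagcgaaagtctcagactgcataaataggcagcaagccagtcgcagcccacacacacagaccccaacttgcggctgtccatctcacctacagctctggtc

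Of 32851 promoters of this length, 3.44% held the interferon-stimulated element and 0.432% the kappaB-type motif. The promoter of Cxcl10 held both, that of Ccl19 the first, and that of Ccl21a neither. These letters describe the windows and say nothing about binding.

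Between genotypes no ligand passed the test in any sorted population on either day, where at most 0.0135% of genes did in each. In cTEC, where 0.00684% of genes passed on each day, edgeR called 0 of 10 ligands, and 47 genes at d30 and 1327 at d120 had an unadjusted p under 0.05. Ccl21a in cTEC was the only tested ligand of a sorted population whose genotype groups did not overlap on both days. At d120 it was at 5663, 3816 and 3557 CPM in SOD1 and at 3003, 894 and 1005 in WT, and at d30 at 528, 1131 and 518 in SOD1 and 389.9 and 197 in WT. All SOD1 libraries were above all WT libraries on both days. The log2 difference was +1.44 ± 0.49 at d120 (edgeR adjusted p = 0.485) and +1.20 ± 0.56 at d30 (edgeR adjusted p = 1), and the difference between days was +0.24 ± 0.72 (edgeR adjusted p = 1). With no filter on low counts Ccl21a was called in cTEC at d120 (edgeR adjusted p = 0.0221), and in the other settings it was not. The sum of mTEC markers in the same d120 libraries was 2242 to 3366 CPM in SOD1 and 866 to 4279 in WT. Beside Ccl21a, Ccl20 in cTEC at d30 had groups that did not overlap, at 40.8, 12.3 and 17.7 CPM in SOD1 and 4.21 and 2.85 in WT. Such separation was seen for 7.47% of all genes in cTEC at d120 and for 13.6% at d30, where WT had 2 libraries. The share of all genes separated on both days was not computed, so Ccl21a cannot be set against it.

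In mTEC Ccl21a lay the other way at d30, at 413, 799.7 and 624 CPM in SOD1 and 1544, 1138 and 1327 in WT (−1.08 ± 0.43, edgeR adjusted p = 1, and −0.87 without the shallow library). At d120 it was at 5576, 1591 and 2555 CPM in SOD1 mTEC and 2908, 2443 and 4015 in WT mTEC, and the groups overlapped (+0.04, edgeR adjusted p = 0.998). Cxcl12 at d120 was below WT in every SOD1 mTEC library, at 42.3, 20.9 and 23.03 CPM against 53.1, 59.9 and 75.3 (−1.14 ± 0.44, edgeR adjusted p = 0.472). Cxcl16 at d30 was lower in all SOD1 mTEC libraries, with the highest at 78.3 CPM and the lowest WT library at 78.7. Groups did not overlap for 8.08% of genes in mTEC at d120 and 11.3% at d30, and in mTEC 0.00529% of genes passed on each day. Of the genes without overlap at d30, 274 were higher and 1866 lower in SOD1, the group with the shallow library. In Treg (0.0135% passed on each day) and CD4 (0.00801%) no tested ligand had groups that did not overlap, which held for 8.44% of genes in Treg at d120 and 11.7% at d30, and for 6.68% and 13% in CD4. The genotype difference did not pass a test of change between days for any ligand in any population. Ccl19 in cTEC at d120 had the largest log2 difference of the ligands with counts in every library, +2.77 ± 0.97 (edgeR adjusted p = 0.485), with 215, 47.9 and 847 CPM in SOD1 against 91.8, 62.9 and 26.1 in WT. Its groups overlapped, and the highest value is SOD1 replicate 3, a library with 7627 genes detected.

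In whole thymus at d120, given by the authors in TPM (transcript abundance scaled to length and depth), 0 of the 8 ligands tested passed limma, where 0.0831% of 14437 genes did and 494 genes had an unadjusted p under 0.05. Ccl25 was at 40.5, 70.9 and 35.0 TPM in SOD1 and 59.1, 24.1 and 18.7 in WT, and Ccl21a at 25.01, 57.8 and 23.5 in SOD1 and 83.1, 28.6 and 19.2 in WT. The groups overlapped for all 10 ligands, while they did not for 8.4% of genes tested. SOD1 replicate 2 and WT replicate 1 were the highest of their groups for Ccl25, Ccl21a, Ccl22 and Cxcl12 alike. Ccl22 averaged 19.1 ± 4.97 TPM in SOD1 and 20.3 ± 9.43 in WT (SD, n = 3 each), and Cxcl16 13.7 ± 2.22 and 12.5 ± 3.46. Ccl17 averaged 6.22 ± 1.02 TPM in SOD1 and 6.98 ± 1.58 in WT, Cxcl12 6.74 ± 3.52 and 5.94 ± 3.80, Ccl19 5.18 ± 1.56 and 3.62 ± 2.43, and Cxcl10 3.42 ± 1.20 and 4.80 ± 2.05. The limma adjusted p of each tested ligand was 0.999. Ccl2 and Ccl20 averaged under 1 TPM and were not tested.

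In the lymph node 5 ligands could be tested and edgeR called 0, where 0.0574% of 5226 genes passed and 261 had an unadjusted p under 0.05. For 4 of these 5 the groups did not overlap, which held for 10.3% of all genes tested there. Ccl19 was at 101, 53.2 and 36.001 CPM in SOD1 and 102, 114 and 114 in WT (−0.74 ± 0.43, edgeR adjusted p = 0.97). Cxcl12 was at 23.5, 29.0 and 54.0 CPM in SOD1 and 55.6, 65.2 and 92.8 in WT (−1.04 ± 0.46, edgeR adjusted p = 0.968). Ccl21a was at 55.4, 48.4 and 48.0 CPM in SOD1 and 80.3, 114 and 105 in WT. Cxcl16 was higher in SOD1, at 36.9, 38.7 and 45.0 CPM against 27.8, 32.6 and 32.9 (+0.38 ± 0.41, edgeR adjusted p = 0.985). The summed markers of macrophages and monocytes also separated these lymph nodes. The sum of 8 macrophage and monocyte markers was 176 to 243 CPM in SOD1 and 374 to 456 in WT, without overlap, and that of 7 fibroblast markers averaged 88.6 ± 30.6 and 163 ± 60.9 CPM, with overlap. Their part in the ligand values was not tested. The shallowest lymph node library, WT replicate 2, holds 63887 counts, so its values rest on a handful of reads. Ccl20 had no count in the 6 lymph nodes and Ccl17 had 1. On the per-length scale Ccl19 (203) and Ccl21a (182) led in lymph node.

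**Figure D5:**
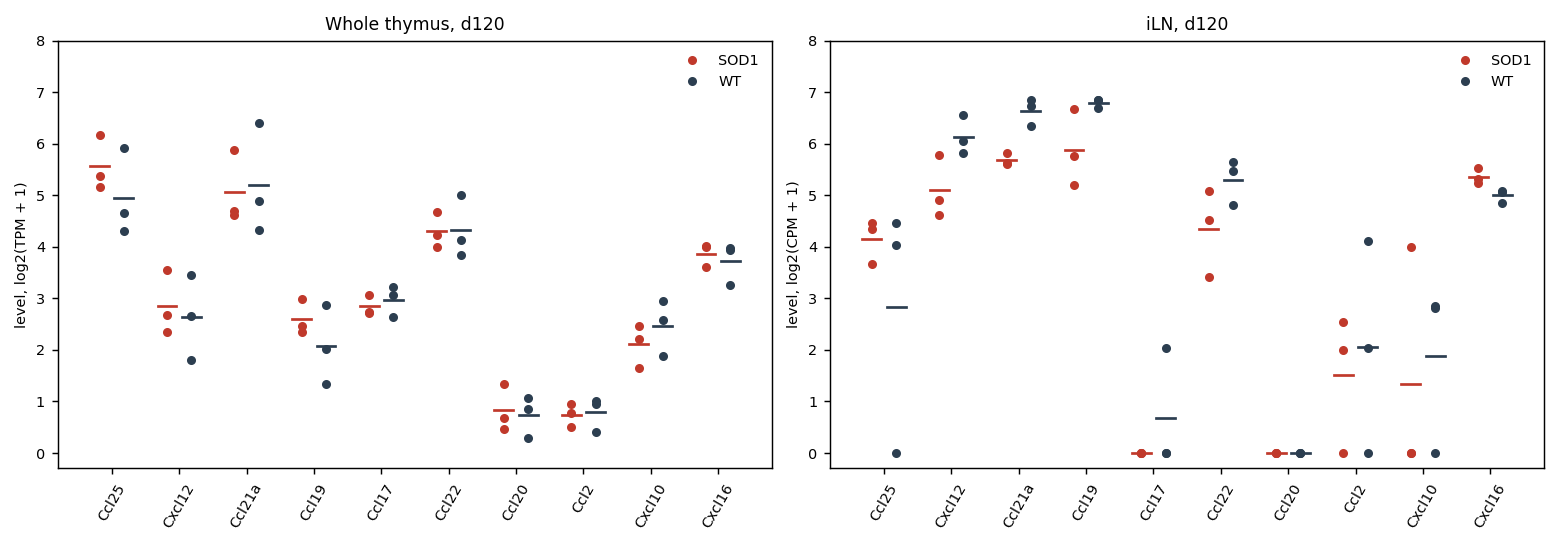
The 10 ligands in whole thymus as log2(TPM + 1) (left) and in inguinal lymph node as log2(CPM + 1) (right), with SOD1 in red, WT in dark blue, a point for each library and a bar at each group's mean. SOD1 and WT overlap for every ligand in whole thymus, and in lymph node all SOD1 libraries lie below all WT libraries for Ccl19, Ccl21a and Cxcl12.

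In the cultures Ccl20 was the ligand that changed between activated libraries and T0, where 58.1% of genes differed between T2 and T0 and 58.2% between T20 and T0. It was at 0, 1.16 and 0 CPM in SOD1 and 0, 3.56 and 0.981 in WT at T0. At T2 it was at 8.14, 23.2 and 13.04 CPM in SOD1 and 39.3, 22.7 and 27.1 in WT, and at T20 at 38.4, 9.34 and 3.38 in SOD1 and 16.6, 29.1 and 34.3 in WT. Every activated library but SOD1 T20 replicate 3 was above every T0 library. However, SOD1 T2 replicate 3, WT T2 replicate 1 and SOD1 T20 replicates 2 and 3 held only 171619 to 285528 counts. Their Ccl20 values thus rest on a handful of reads. The log2 difference to T0 was +4.26 ± 0.63 at T2 (edgeR adjusted p = 1.86e-05) and +4.50 ± 0.62 at T20 (edgeR adjusted p = 9.99e-06). Ccl25, the other ligand that could be tested, did not pass (−0.95 ± 0.52 at T2 and −0.91 ± 0.53 at T20, edgeR adjusted p = 0.123 and 0.152). Ccl21a had no count in the 18 cultures. Foxp3 averaged 11.3 ± 10.7 CPM at T0, 131 ± 77.0 at T2 and 130 ± 102 at T20, and the sum of 8 Treg markers 196 ± 150, 3120 ± 1274 and 2647 ± 959.6. The T0 libraries thus carried little of the markers of their Treg label, and activation and the gain of these markers cannot be told apart.

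Receptors of these ligands moved with the same libraries. Of 22 listed chemokine receptors, 13 were tested in cTEC, and 6 fell with age while none rose, where 4.63% of all genes differed. Ccr7, the receptor of Ccl21a and Ccl19, averaged 6.69 ± 8.42 CPM in cTEC at d120 and 835 ± 590 at d30 (−7.23 ± 1.02, edgeR adjusted p = 0.00263), and Ackr4, a scavenger of Ccl19, Ccl21 and Ccl25, 40.3 ± 22.3 and 261 ± 147 (−2.50 ± 0.55, edgeR adjusted p = 0.0251). Ccr2, Ccr4 and Ccr6 had no count in cTEC at d120, and Xcr1, a dendritic cell receptor, also fell (edgeR adjusted p = 0.016). Ptprc averaged 48.3 ± 36.2 CPM in cTEC at d120 and 315 ± 132 at d30, and T cell and dendritic cell marker sums were also lower at d120. The part of other cells in the receptor values was not tested. In mTEC 1 of 18 rose and 1 fell (3.16% of all genes). Ccr7 averaged 346 ± 152 CPM in mTEC at d120 and 109 ± 36.1 at d30 (+1.60 ± 0.30, edgeR adjusted p = 0.00969). In Treg 3 of 17 rose and Xcr1 fell, a share below the 29.9% of all genes that differed. Ccr9, the receptor of Ccl25, averaged 547 ± 185 CPM in Treg at d120 and 340 ± 33.1 at d30 (+0.62 ± 0.12, edgeR adjusted p = 0.00223), and Cxcr4 56.4 ± 26.3 and 25.9 ± 9.89 (+1.07 ± 0.31, edgeR adjusted p = 0.0194). In CD4 2 of 15 rose and 2 fell (10.6% of all genes), and Cxcr6, the receptor of Cxcl16, averaged 72.2 ± 33.8 CPM at d120 and 28.0 ± 6.60 at d30 (+1.64 ± 0.36, edgeR adjusted p = 0.0139). In activated cultures 7 of 13 receptors rose and 5 fell at T2 (58.1% of all genes differed), and 7 rose and 4 fell at T20 (58.2%). There Ccr9 averaged 328 ± 70.8 CPM at T0, 7.33 ± 6.46 at T2 and 7.19 ± 6.86 at T20, and Ccr6, the receptor of Ccl20, 0.633 ± 0.981, 2.33 ± 2.17 and 4.76 ± 2.48. No receptor passed between genotypes in any comparison.

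The other chemokine ligands were given by a list of 28. Of the 27 tested between mTEC and cTEC, 14 were higher and 1 lower in mTEC at d120, and 14 were higher and 2 lower at d30. Of all genes 28.7% differed at d120, 5150 higher and 1081 lower in mTEC, and 22.3% at d30, 3615 higher and 1237 lower, so most calls lay on the mTEC side over all genes too. Cxcl2, a neutrophil attractant, averaged 732 ± 122 CPM in mTEC and 42.9 ± 36.5 in cTEC at d120 (+4.15 ± 0.68, edgeR adjusted p = 2.13e-05). With age 3 rose and 3 fell of 20 tested in cTEC (4.63% of all genes differed), and 4 rose and none fell of 26 in mTEC (3.16%). Ccl11, an eosinophil attractant, averaged 491 ± 231 CPM in mTEC at d120 and 59.8 ± 23.6 at d30 (+2.92 ± 0.33, edgeR adjusted p = 0.000294). In cTEC it averaged 312 ± 141 and 8.99 ± 2.79 (+5.32 ± 0.66, edgeR adjusted p = 0.00122). Cxcl1 and Ccl7 also rose in both populations, while Ccl3, Ccl4 and Ccl9 fell in cTEC. In CD4 cells Ccl5 averaged 327 ± 184 CPM at d120 and 98.2 ± 15.3 at d30 (+1.98 ± 0.39, edgeR adjusted p = 0.00899). In Treg it averaged 43.8 ± 14.7 and 121 ± 41.3 (−1.47 ± 0.24, edgeR adjusted p = 0.000707). None of the 28 passed between genotypes.

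The genes whose group means were most like each ligand were ranked by Pearson r over the 16 sorted groups, among 15044 genes and as a description only. Cxcl12 was most like Prss16 (r = 0.988), a thymus-specific protease of cTEC that is among the 7 cTEC markers, and Ccl25 most like Tbata (0.995). Ccl21a was most like Col6a1 (0.993) and Krt17 (0.992), Ccl19 most like Reg3g (0.996) and Ccl20 most like Cyp2a5 (0.993). Cxcl10 was most like Art3 (0.994) and Ccl2 most like Tm4sf1 (0.983). The closest genes were less alike for Ccl22 (Scd2, 0.947), Cxcl16 (Parp3, 0.934) and Ccl17 (Mlkl, 0.918).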

How the data were processed

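The authors deposited raw read counts per gene for sorted cells, lymph nodes and cultures, as whole numbers per the file values, and TPM for whole thymus. Per the labels, RNA was amplified with the SMARTseq v4 low input kit, and per the submitters' processing notes mm10 and DESeq2 were used, with roles not stated. The aligner and counter were not stated.

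Counts were tested with edgeR 4.0.16 (TMM scaling, filterByExpr by group, quasi-likelihood F-test, Benjamini-Hochberg over all genes tested, called under 0.05) in R 4.3.3. Contrasts between populations came from 1 fit of all sorted libraries with genotypes averaged, and age and genotype from each population's own fit. The SE of an edgeR log2 difference is approximate, taken as its size divided by the square root of the F statistic. Whole thymus used limma 3.58.1 with a trend, a pseudocount of 1 and a minimum mean of 1 TPM, on the log2 scale, which understates changes of low genes. Scripts were tested on simulated data. CPM used TMM-scaled library sizes. Counting error alone bounds the floor of 3 counts. Transcripts were aligned with blastn 2.17.0.

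The ligands and gene lists were chosen with earlier results of these data known. All 10 ligands are named. From each other list up to 4 genes per comparison with the smallest p, and receptors of the ligands, could be named. Markers of other cells, Sod1, Foxp3, Aire and genes singled out by library were chosen after their values were seen where no rule names them.

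Same-numbered libraries of different populations, numbered by title, may be 1 mouse. Serial numbers in the names of d30 libraries place each WT cTEC library beside mTEC and Treg libraries of another replicate number. Which WT cTEC library of d30 belongs with which is thus uncertain. Their deviations correlated over 0.1 in all 5 pairs only between Treg and CD4 at d30 (0.217 to 0.337) and cTEC and CD4 at d30 (0.105 to 0.270). For cTEC and CD4 the WT pairs hold a single value, 0.105, because each WT group has 2 libraries. Its sign depends on which WT libraries are matched. Alternatives were other scaling, filters, tools (DESeq2 1.42.0, limma voom), a replicate block and leaving out each library. Libraries under 300000 counts or 8000 genes were also omitted. For genotype in sorted cells at d120, a covariate split the libraries by the number that ends each name. No label says what that number marks. Between populations the replicate block joined libraries of the same genotype, day and number. For age and genotype it was the bare replicate number, shared by different mice.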

Additional observations from a re-analysis of the deposited data

Results flagged for a closer look

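For 3 ligands the difference between mTEC and cTEC at d120 differed from that at d30, by a test of the difference between days in edgeR. Ccl17 was higher in mTEC at d120 (39.7 ± 48.1 CPM, against 4.56 ± 3.38 in cTEC) and lower at d30 (15.2 ± 8.01, against 84.4 ± 38.6), with an adjusted p of 0.00561 in edgeR. Ccl22 was at 148 ± 104 CPM in mTEC and 1.48 ± 3.62 in cTEC at d120, and at 178 ± 34.5 and 794 ± 659.6 at d30, with an edgeR adjusted p of 5.6e-07. Cxcl16 was at 238 ± 48.8 CPM in mTEC and 257 ± 95.6 in cTEC at d120, and at 66.0 ± 34.6 and 392.2 ± 274 at d30, with an edgeR adjusted p of 0.0123 that became 0.234 without WT cTEC d30 replicate 2. The sum of 8 dendritic cell markers averaged 106 ± 50.2 CPM in mTEC and 10.9 ± 12.7 in cTEC at d120, and 67.1 ± 18.2 and 408 ± 416 at d30. Ptprc averaged 10.9 ± 9.87 CPM in mTEC and 48.3 ± 36.2 in cTEC at d120, and 20.9 ± 13.8 and 315 ± 132 at d30. The part of these markers in the differences was not tested.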

How the results depend on the processing

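No called ligand changed direction under any alternative. Of the counts of ligands called, 227 of 248 stayed within 1.5 times their value under other settings and 320 of 335 when 1 library was left out. These totals include counts of 0 that stayed 0, and an unchanged count can hold other ligands. Of single ligand calls, 787 were kept and 20 lost under other settings. With 1 library left out, 1153 were kept and 62 lost. Between Treg and CD4 at d30 (1 called) the count was 3 with the compared groups alone and 2 with voom or no filter on low counts. At d120 (1 called) it was 2 with DESeq2, voom or no filter, and 3 with the replicate block or without low depth libraries. With no filter on low counts the count was 5 for the change of the mTEC to cTEC difference between days (3 called), 2 for SOD1 against WT in cTEC at d120 (0 called; Ccl21a and Ccl22), 4 for age in Treg (2 called) and 1 each for genotype in Treg at d120 and its change between days (0 called; Ccl22). For age in CD4 (2 called) it was 4 with no filter and 1 with voom or the replicate block. In cultures (1 called at each time) it was 3 at T2 and 4 at T20 with no filter, 3 at both without low depth libraries, and 2 at T20 with voom.

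With 1 library left out, counts ran from 5 to 7 for mTEC against cTEC on each day, 8 to 10 and 7 to 7 for mTEC against Treg at d120 and d30, 10 to 10 and 6 to 8 for mTEC against CD4, 8 to 8 and 8 to 10 for cTEC against Treg, 8 to 9 and 9 to 10 for cTEC against CD4, and 1 to 2 and 0 to 1 for Treg against CD4. They ran from 2 to 3 for the change of the mTEC to cTEC difference, 3 to 7 for age in cTEC, 3 to 4 in mTEC, 2 to 3 in Treg and 0 to 2 in CD4, and 1 to 2 in cultures. For genotype they were 0 throughout. Beyond the calls given above, the replicate block ended those of Ccl17 and Ccl22 between mTEC and cTEC at d30. It also ended Ccl20 and Ccl22 between cTEC and Treg at d30, and Cxcl16 for the change between days. The matching of WT cTEC libraries at d30 is uncertain, so these losses do not show an effect of pairing. The same block ended Ccl17 between mTEC and Treg at d120. A block on the bare replicate number, which need not mark a shared mouse, ended Ccl19 with age in cTEC and Cxcl12 with age in CD4. The cause was not tested. Depth limits the lymph nodes, where 3 counts over the 6 libraries are 1.62 CPM, and single shallow libraries of mTEC d30 (15135 counts) and of the cultures (171619 to 285528 counts in 4).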
